A study of Mus musculus with 25 samples.

Results

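H3K9me3 peaks on the autosomes, chromosomes 1 to 19, were compared between regenerating myofibers that express a stabilised HIF1α and wild-type myofibers. The members were all peaks on these chromosomes in the H3K9me3 lists labelled wild-type (replicates 1 to 3) and HIF1dPA (replicates 1 to 3). They numbered 11093 of the 55242 peaks in all lists of the series and came from 6 of its 25 samples. The study examined whether repressive histone marks change in muscle with high HIF1α activity, using chromatin immunoprecipitation sequencing (ChIP-seq) of Dendra2+ myofibers dissected from the tibialis anterior muscle 14 days post injury (dpi).

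Both groups carried the mito-Dendra2 reporter driven by Pax7-Cre(ERT2), so that recombination was limited to muscle stem cells and their progeny. Both received tamoxifen at 75 mg/kg daily for 5 days, and the muscle was injured 2 days later with 50 µL of 1.2% BaCl2. HIF1dPA myofibers in addition express, conditionally, a HIF1α with prolines changed to alanine, which VHL, the substrate receptor that marks HIF1α for degradation, no longer recognises. Sex, strain and age of the animals are not in the labels, so that a difference between the groups in genetic background cannot be told apart from the genotype, also at the gene clusters described here. H3K9me3 was precipitated with Abcam antibody ab8898 after fixation in 1% formaldehyde and shearing of the chromatin to fragments near 500 bp.

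H3K9me3 is a histone mark of constitutive heterochromatin. SUV39H enzymes place it over pericentromeric repeats, whereas SETDB1, recruited through TRIM28 by KRAB zinc finger proteins, places it over retrotransposons and over the zinc finger gene clusters themselves. Among the known targets of HIF1α are Jumonji demethylases that remove the mark.

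Depth is not known, because the lists hold no read totals. Each peak carries a score, 10 times the negative log10 of the caller's p-value, which has a floor of 50 (p of 1e-05) and grows with depth. The highest autosomal score was 2851, 2962 and 2858 in wild-type lists and 1022, 846 and 879 in HIF1dPA lists. Ranks or percentiles within a list were therefore used to compare the strength of regions between groups. Results are given for the full lists and for the same number of top peaks, 1141, in each. Scores quoted for single peaks, and the alternative with a score of at least 100, carry any difference in depth. Outside the autosomes, the X chromosome held 23.7 to 25.2% of all wild-type peaks and 4.05 to 4.79% of all HIF1dPA peaks. The part of these differences in the autosomal results was not tested.

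The promoters shown here are the windows, of 250 bases before and 50 after a gene's start, that carried a peak in every list of a group or that share a sequence with one that did (RefSeq, assembly GRCm38.p6). Peaks covered a base of 89 of 31396 autosomal windows. Gm17353 (chr13:65896933-65897232, plus strand) and Gm40987 (chr13:65990947-65991246, minus strand) were overlapped in all 3 HIF1dPA lists and in no wild-type list. The longest run that both hold is 20 bases, printed in capitals, and the same run lies at the start of Zfp640 (chr13:66680754-66681053, minus strand), the zinc finger gene to which the HIF1dPA lists assigned most peaks. 
Gm17353: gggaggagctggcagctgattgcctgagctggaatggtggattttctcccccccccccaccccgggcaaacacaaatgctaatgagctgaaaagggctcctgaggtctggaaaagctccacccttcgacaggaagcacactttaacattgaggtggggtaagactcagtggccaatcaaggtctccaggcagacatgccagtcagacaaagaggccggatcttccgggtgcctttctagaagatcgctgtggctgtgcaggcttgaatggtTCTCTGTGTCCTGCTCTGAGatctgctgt
Gm40987: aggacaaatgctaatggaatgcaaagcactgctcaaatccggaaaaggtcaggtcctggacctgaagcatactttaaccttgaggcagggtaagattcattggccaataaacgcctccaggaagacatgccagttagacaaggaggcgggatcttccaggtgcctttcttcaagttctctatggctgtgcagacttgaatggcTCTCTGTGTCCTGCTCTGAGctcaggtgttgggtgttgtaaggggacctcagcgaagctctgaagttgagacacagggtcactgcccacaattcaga
Zfp640: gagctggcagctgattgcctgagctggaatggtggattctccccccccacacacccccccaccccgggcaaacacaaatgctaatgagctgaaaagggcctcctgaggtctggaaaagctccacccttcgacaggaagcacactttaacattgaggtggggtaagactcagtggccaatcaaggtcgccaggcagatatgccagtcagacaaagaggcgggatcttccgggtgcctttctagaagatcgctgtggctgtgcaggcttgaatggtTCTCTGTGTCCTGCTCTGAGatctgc
Gm46178 (chr1:191120652-191120951, plus strand) was the only window overlapped in every wild-type and no HIF1dPA list. Duxf3 (chr10:58233040-58233339, minus strand), a double homeobox gene of a tandem repeat array, was the only one overlapped in all 6 lists. 
Gm46178: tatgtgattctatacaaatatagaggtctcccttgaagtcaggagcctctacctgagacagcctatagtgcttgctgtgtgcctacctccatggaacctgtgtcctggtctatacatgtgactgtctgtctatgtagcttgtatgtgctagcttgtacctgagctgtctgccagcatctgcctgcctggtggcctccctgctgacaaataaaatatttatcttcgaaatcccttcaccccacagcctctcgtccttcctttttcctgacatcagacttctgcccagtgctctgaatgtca
Duxf3: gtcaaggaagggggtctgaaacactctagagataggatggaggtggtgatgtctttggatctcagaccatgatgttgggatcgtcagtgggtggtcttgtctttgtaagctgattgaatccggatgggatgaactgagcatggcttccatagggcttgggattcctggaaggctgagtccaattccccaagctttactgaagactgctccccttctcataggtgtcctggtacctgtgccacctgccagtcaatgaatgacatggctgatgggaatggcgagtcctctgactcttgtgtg

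The 20-base run occurred, on either strand, in 11 of the 31396 windows (0.0350%). All 11 were on chromosome 13 between 65415019 and 66753262, the stretch in which HIF1dPA lists held most of their own regions. Of these windows, 6 had a peak in at least 1 HIF1dPA list and 0 had one in a wild-type list. The 6 belong to Gm17353, Gm46425, Gm32476, Gm40987, 2410141K09Rik and Zfp640, and those of Gm46425 and Gm32476 overlap each other. Gm17353 and Gm40987 supplied the run and were chosen for their HIF1dPA peaks, so this split was partly fixed in advance. Wild-type peaks did lie within 5 kb of some of the 11. Gm46428 had 0, 0 and 2 there in wild-type and 1, 2 and 0 in HIF1dPA lists. Near-identical starts of this kind can share sequence reads, and how reads that map to several places were treated is not given in the sources used here, so a peak in the stretch is uncertain as to which copy it came from.

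HIF1dPA myofibers had fewer autosomal H3K9me3 peaks than wild-type. Wild-type lists held 2176, 2407 and 2239 peaks, and HIF1dPA lists 1542, 1588 and 1141. The groups did not overlap. The means were 2274 ± 119 and 1424 ± 246 (SD, n = 3 each), so that geometric means stood at a HIF1dPA to wild-type ratio of 0.620 (two-sided exact permutation p = 0.1, adjusted p = 0.138). With 3 libraries against 3, 0.1 is the smallest p possible, so no comparison here can pass 0.05. The lower number was not particular to HIF1dPA. Lists of vhl-/- myofibers, which lack VHL, held 3476 autosomal H3K9me3 peaks over all 3 together. Those of mfn2-/- myofibers, which lack mitofusin 2, held 3100 over all 3. These genotypes were set beside wild-type without a test. Less mark per nucleus and fewer marked nuclei cannot be told apart in such lists. Peaks covered 2.07 ± 0.133 Mb in wild-type and 1.36 ± 0.213 Mb in HIF1dPA (n = 3 each), a ratio of 0.653 (exact permutation p = 0.1). At 1141 top peaks per list the covered lengths still did not overlap, with a ratio of 0.877 (exact permutation p = 0.1). The median width was 596, 600 and 598 bp in wild-type and 643, 646.5 and 610 bp in HIF1dPA lists, a ratio of 1.06. Among equal numbers of top peaks that ratio was 0.945 (exact permutation p = 0.5). Peaks of 5 kb or more numbered 32, 35 and 30 against 19, 22 and 22.

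The largest differences lay in a small number of gene clusters. Cut into 1 Mb windows, the autosomes had 1658 with a peak in any list. In 100 of them (6.03%) every wild-type list had more peaks than any HIF1dPA list, and in 22 (1.33%) the reverse held. At equal numbers of top peaks these were 36 (2.94%) and 29 (2.37%) of 1225 windows. The 12 windows with the largest loss summed to -359 peaks of the net -850.3 peaks per list (42.2%), while the 3 with the largest gain summed to +141. Those 3 were a pair of neighbours on chromosome 13 and a window of immunoglobulin genes on chromosome 12.

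**Figure D1:**
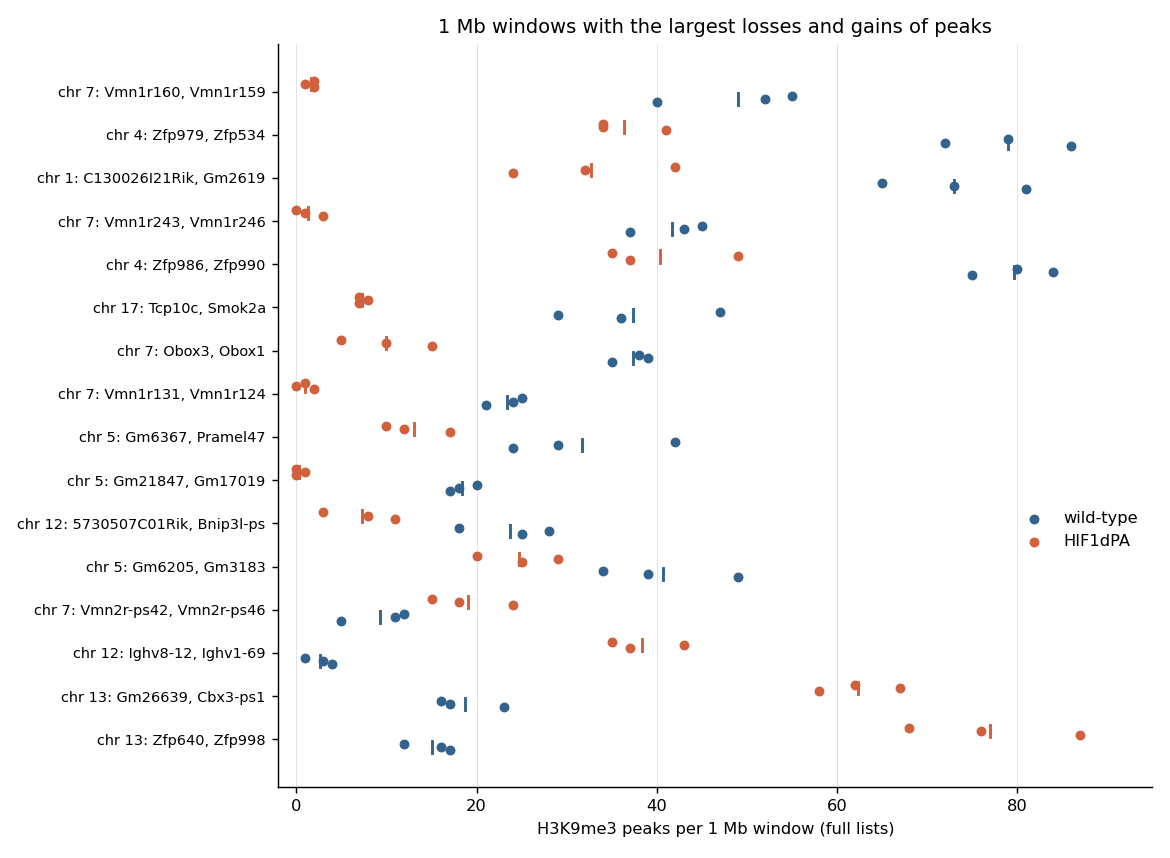
Number of H3K9me3 peaks (x axis) in the 12 windows of 1 Mb with the largest losses and the 4 with the largest gains (y axis, named by chromosome and the genes with most peaks there), full lists. Points are the 3 wild-type and 3 HIF1dPA libraries and short lines their means. The groups do not overlap in any row, which largely follows from picking rows by the difference of these means. The window of Zfp640 and Zfp998 runs from 12 to 17 peaks in wild-type and from 68 to 87 in HIF1dPA.

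Chromosome 13 carried the main gain. It held 6.39, 6.02 and 6.21% of wild-type autosomal peaks but 16.1, 15.6 and 17.4% of HIF1dPA peaks. The difference was +10.2 percentage points, and +11.6 at equal numbers of top peaks. The share was higher in every HIF1dPA list on 5 of the 19 autosomes (26.3%) and in every wild-type list on 6 (31.6%). Chromosome 7 differed most the other way, with 15.4, 16.8 and 17.7% of wild-type against 11.8, 11.3 and 10.3% of HIF1dPA peaks (-5.54 points).

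Merging the peaks of all 6 lists gave 8007 regions, of which 61 (0.762%) had a peak in every HIF1dPA and no wild-type list. Of these 61, 49 were on chromosome 13, and 48 lay within chr13:65484730-66727304, a span of 1.24 Mb. In this span wild-type lists had 29, 24 and 22 peaks and HIF1dPA lists 133, 133 and 122. Peaks there covered 17.9 kb per wild-type list and 158 kb per HIF1dPA list. The median percentile of these peaks within their own list was 53.7, 41.6 and 62.6 in wild-type and 85, 83.9 and 77.7 in HIF1dPA. The span was drawn around regions picked for peaks in HIF1dPA lists alone. Its counts, covered lengths and percentiles were thus partly fixed by that choice and only describe it. RefSeq places 48 genes in it, 34 of them predicted or Rik genes, with interspersed pseudogenes of type 2 vomeronasal receptors (Vmn2r).

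The vhl-/- myofibers, in which HIF1α is stabilised by loss of VHL, had 119, 114 and 130 peaks in the same span, and mfn2-/- myofibers, which lack the mitochondrial fusion protein mitofusin 2, had 31, 27 and 24. As raw counts, vhl-/- lists thus lay near HIF1dPA and mfn2-/- lists near wild-type. The lists differ in length, however, with 3476 autosomal peaks over all 3 vhl-/- lists and 3100 over all 3 mfn2-/- lists. The mfn2-/- lists were shorter than the wild-type lists, so the span took a larger share of their peaks than of wild-type peaks. The comparisons of both stabilised-HIF1α genotypes share the wild-type libraries, and the genotypes were set side by side without a test.

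Zfp640 was assigned more peaks than any other gene in the HIF1dPA lists. It had 0, 3 and 2 peaks in wild-type and 36, 32 and 32 in HIF1dPA, covering 0, 2954 and 1551 bp against 51477, 47276 and 35914 bp. No wild-type count came near the HIF1dPA counts. Most were intergenic: a HIF1dPA-only region at chr13:66696243-66701119 ranked 33, 23 and 46 in its lists and lay 15440 bp from the RefSeq gene. Zfp998 (ENSMUSG00000074832), also a zinc finger gene, had 1, 1 and 1 peaks in wild-type and 21, 18 and 17 in HIF1dPA. Its intron 3 of 4 held the strongest HIF1dPA-only region, at chr13:66425536-66428830, with scores of 514, 346 and 182 and ranks of 5, 8 and 36. This region had a peak in all 3 vhl-/- and in 2 of 3 mfn2-/- lists.

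Other genes of the span with more peaks in every HIF1dPA list were pseudogenes and predicted genes. Cbx3-ps1, a pseudogene of the heterochromatin protein HP1γ gene, had 4, 1 and 5 peaks in wild-type and 18, 16 and 13 in HIF1dPA. Rybp-ps, a pseudogene of a Polycomb component gene, had 10, 7 and 9 against 18, 21 and 17. Gm26639 had 3, 4 and 0 against 16, 22 and 21, and Gm10139 had 1, 2 and 0 against 10, 11 and 13. None of these 4 overlapped between groups. Over all 3446 genes with a peak, 30 (0.871%) had more peaks in every HIF1dPA list than in any wild-type list, and 157 (4.56%) had fewer.

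The chromosome 12 gain lay in the immunoglobulin heavy chain variable genes, which are rearranged in B cells to build antibodies. The window from 115 Mb, where 54 of 76 RefSeq genes are Ighv genes, had 4, 3 and 1 wild-type peaks and 37, 43 and 35 HIF1dPA peaks. In vhl-/- lists it had 28, 30 and 27 peaks and in mfn2-/- lists 0, 1 and 1. Across the chromosome, peaks assigned to any of 58 Ighv genes numbered 4, 8 and 7 in wild-type and 49, 51 and 44 in HIF1dPA lists. Within chr12:115549302-115827397, a span drawn around them, lay 7 of the 61 HIF1dPA-only regions. Peaks there numbered 2, 1 and 0 in wild-type and 21, 27 and 24 in HIF1dPA lists, a split partly fixed by that choice. The strongest of the 7 regions, at chr12:115819867-115827397, was assigned to Ighv1-75 and ranked 46, 58 and 38.

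By gene rather than region, 20 of 3446 genes (0.58%) had a peak in every HIF1dPA and no wild-type list, and 10 of the 20 were Ighv genes. Ighv8-12 had 3, 6 and 5 peaks and Ighv1-69 had 3, 4 and 4. Outside that family, Cpeb4, which encodes a cytoplasmic polyadenylation factor, had 1 peak in each HIF1dPA list, with scores of 139, 169 and 73.8, in intron 5 of 9 (chr11:31922226-31922995). It also had 1 in each vhl-/- list and 0 in every mfn2-/- list. Vmn2r50 had 4, 4 and 4 peaks in HIF1dPA lists and 0 in all wild-type, vhl-/- and mfn2-/- lists. The remainder were Pcca (a subunit of propionyl-CoA carboxylase), Cdh19 (a cadherin), Nxpe2, Vmn2r17, Zfp804b, Gm15442, Gm13991 and Mir466f-4, with best scores between 50.1 and 178.

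Wild-type-only regions numbered 88 of 8007 (1.1%), and they were more dispersed, over 17 chromosomes, with 20 on chromosome 4 and 12 on chromosome 5. The strongest autosomal peak of every wild-type list was among them. It lay between genes at chr10:3110937-3115764, near 9230019H11Rik, with scores of 2851, 2962 and 2858 and rank 1 in each list. Regions on both sides of it, at chr10:3109126-3110553 and chr10:3115867-3117494, were also in wild-type lists only. All 3 had no peak in any vhl-/- list, and the strongest had one in all 3 mfn2-/- lists. The promoter region of Gm12735, the widest of the 10 strongest, ranked 16, 34 and 15 and had no peak in any list of the other 3 genotypes.

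Of the wild-type-only regions, 21 of 88 were assigned to zinc finger genes, beside 22 of the 61 HIF1dPA-only and 22 of the 88 shared regions. The share so assigned over all regions was not computed, so these counts are not read as high or low. By distance the order differed. Within 100 kb of a RefSeq zinc finger gene lay 31 wild-type-only (35.2%), 15 HIF1dPA-only (24.6%) and 35 shared regions (39.8%). Over all 8007 regions the share was 14.6%. RefSeq has 1 zinc finger gene in the chromosome 13 span. Among wild-type-only regions, that of Zfp873, at chr10:82006643-82010185, ranked 98, 75 and 67. Exon 7 of 17 of Sp140, a nuclear body protein gene of leukocytes, ranked 67, 28 and 166 (chr1:85620188-85628137). Intron 1 of 3 of Zfp985 ranked 139, 86 and 43 (chr4:147567639-147572055), directly beside a Zfp985 region that all 6 lists share. All 3 vhl-/- lists had a peak in the Sp140 region. Sp100 and Sp140 genes together held 8, 5 and 8 wild-type and 1, 0 and 6 HIF1dPA peaks, which overlap.

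**Figure D2:**
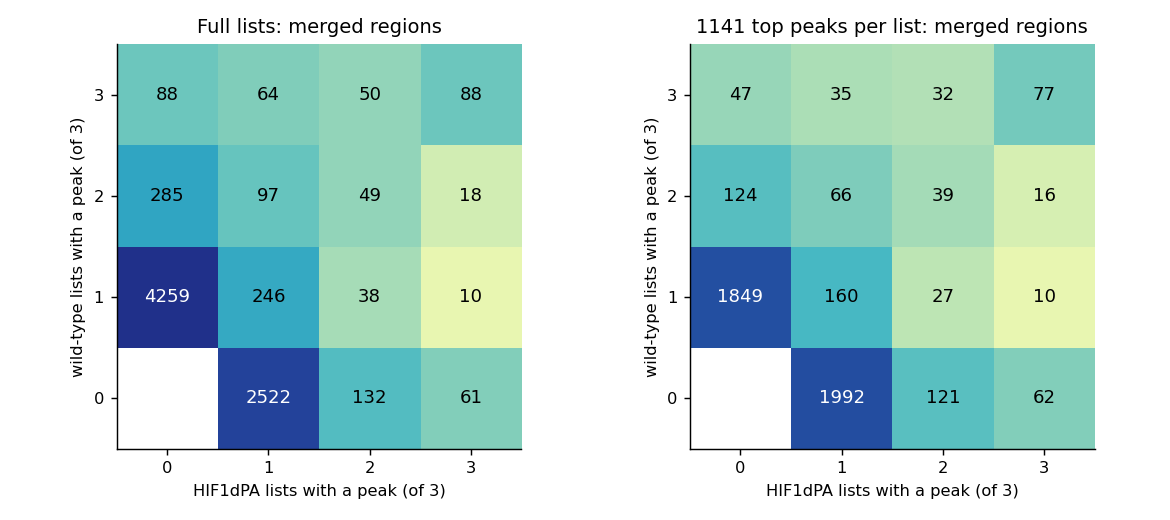
Merged autosomal regions by the number of wild-type (y axis) and HIF1dPA (x axis) lists that have a peak in them, for full lists (left) and for 1141 top peaks per list (right); numbers are counts of regions and darker blue means more. Regions in every list of 1 group and none of the other number 88 and 61 in full lists and 47 and 62 with equal numbers.

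The balance between both directions depended on list length. With 1141 top peaks per list, 47 of 4657 regions (1.01%) were particular to the wild-type lists, 62 (1.33%) were particular to the HIF1dPA lists and 77 (1.65%) were in all 6. Of the regions found with full lists, 42 of the 88 and 57 of the 61 separated the groups again. For genes the counts were 88 (2.55%) and 20 (0.58%) in full lists and 35 (1.53%) and 25 (1.09%) at equal numbers. The median width was 1670 bp in wild-type-only and 2109 bp in HIF1dPA-only regions, each a merge of peaks from at least 3 lists.

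Vomeronasal type 1 receptor genes (Vmn1r), the pheromone receptors that lie in large tandem arrays, had far fewer peaks in HIF1dPA. They were assigned 119, 148 and 135 peaks in wild-type and 31, 25 and 13 in HIF1dPA lists, a ratio of means of 0.172, and of 0.279 at equal numbers of top peaks. Of 131 Vmn1r genes with any peak, 26 (19.8%) had one in every wild-type and no HIF1dPA list, and 0 the reverse, beside 2.55% and 0.58% of all genes. At equal numbers 12 of 109 did so, and 1, Vmn1r73, the reverse. The deficit lay in chromosome 7 from 20 to 23 Mb, with 89, 114 and 108 wild-type and 6, 2 and 3 HIF1dPA peaks. Vmn1r genes elsewhere had 30, 34 and 27 against 25, 23 and 10, with no overlap but a much smaller gap. As shares of the peaks outside that stretch these were 1.44, 1.49 and 1.28% against 1.63, 1.45 and 0.879%, which overlap. Vmn1r160 had 5, 6 and 7 wild-type peaks and 0 in every HIF1dPA list, and Vmn1r159 had 2, 7 and 4 and 0. In the window from 22 Mb, mfn2-/- lists held 0, 0 and 1 peaks and vhl-/- lists 0, 2 and 2, so both other mutants were also near 0 there.

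Type 2 receptors did not follow. Vmn2r genes had 53, 64 and 66 peaks in wild-type and 76, 61 and 47 in HIF1dPA lists, which overlap. As shares of shorter lists these were 2.68 ± 0.257% and 4.30 ± 0.565% (SD, n = 3 each), without overlap. On chromosome 7 from 8 to 9 Mb they had 4, 9 and 9 wild-type and 23, 14 and 12 HIF1dPA peaks. Of the 61 HIF1dPA-only regions, 48 (78.7%) lay within 100 kb of a RefSeq Vmn2r gene or pseudogene, against 6 of 88 wild-type-only regions (6.82%) and 10.4% of all regions. That count largely restates the chromosome 13 span, where Vmn2r pseudogenes are interspersed. Olfactory receptor genes (Olfr) had 30, 27 and 24 against 28, 27 and 12 peaks, which also overlap.

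**Figure D3:**
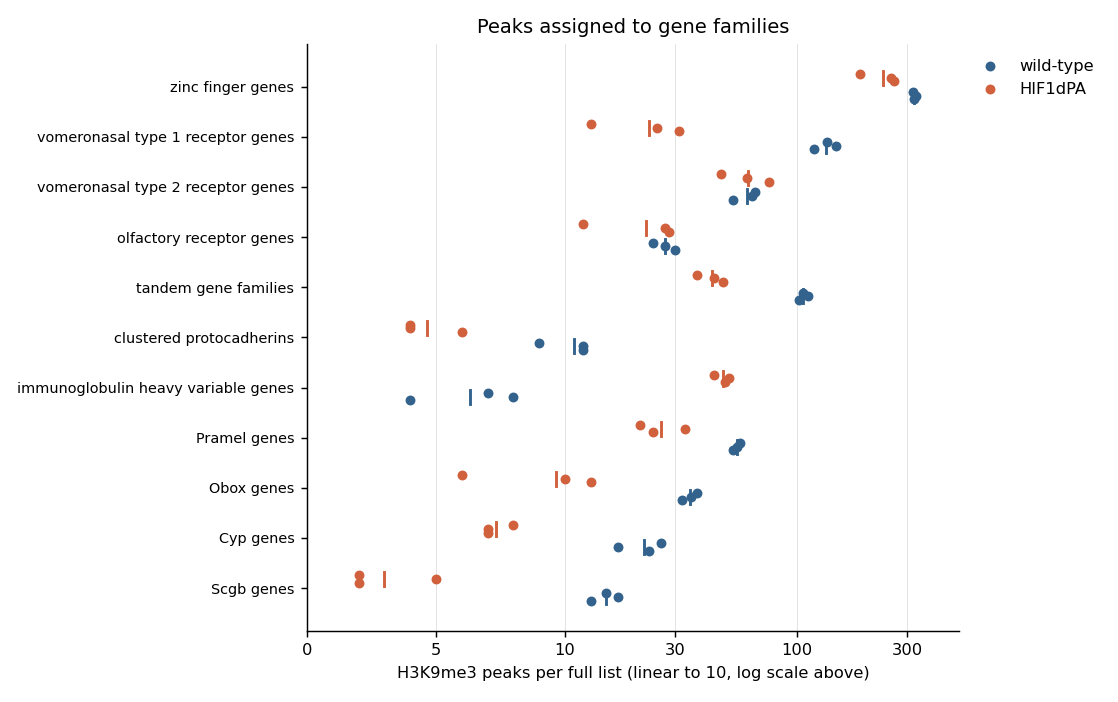
H3K9me3 peaks assigned to each gene family (x axis, linear to 10 and logarithmic above) per full autosomal list; points are libraries and short lines group means. Vmn1r genes run from 119 to 148 in wild-type and 13 to 31 in HIF1dPA, and immunoglobulin heavy variable genes from 4 to 8 and 44 to 51.

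All 3 receptor families together took 9.28, 9.93 and 10.0% of wild-type and 8.75, 7.12 and 6.31% of HIF1dPA peaks. The difference was -2.36 percentage points (exact permutation p = 0.1, adjusted p = 0.138) and -2.34 at equal numbers. Without the chromosome 7 windows from 20 to 23 Mb it was +1.68 (exact permutation p = 0.1), so the direction turned without this cluster.

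Zinc finger genes, many of which encode the KRAB repressors that recruit H3K9me3, were assigned 321, 325 and 316 peaks in wild-type and 263, 256 and 187 in HIF1dPA lists. Relative to list length the order turned: 14.8, 13.5 and 14.1% against 17.1, 16.1 and 16.4%, a difference of +2.40 points (exact permutation p = 0.1, adjusted p = 0.138). At equal numbers it was +0.292 (exact permutation p = 0.8). The chromosome 13 windows from 65 to 67 Mb accounted for 14, 14 and 6 wild-type and 72, 59 and 58 HIF1dPA zinc finger peaks. Without them the shares were 13.8 ± 0.657% and 13.4 ± 0.516% (-0.476 points, exact permutation p = 0.4). Of 157 zinc finger genes with a peak, 34 (21.7%) had a peak in all 6 lists, beside 4.38% of all genes (5.08% at equal numbers), while 2 separated towards wild-type and 1 towards HIF1dPA.

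The zinc finger cluster on chromosome 4 from 145 to 148 Mb went the opposite way to the chromosome 13 windows. It had 114, 107 and 108 wild-type and 53, 59 and 39 HIF1dPA zinc finger peaks. RefSeq has 9 zinc finger genes in its window from 147 Mb, but only 1 in each chromosome 13 window. Zfp979 had 15, 13 and 19 peaks against 10, 8 and 7. Zfp986 had 17, 16 and 13 against 6, 8 and 2, and Zfp534 had 18, 14 and 11 against 6, 5 and 4. None of these 3 genes overlapped between groups, and all had peaks in every list. With equal numbers, the window from 147 Mb still had 66, 62 and 67 against 37, 29 and 34.

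Other windows with large deficits lay on chromosomes 1, 5 and 17. The window on chromosome 1 from 85 Mb, led by C130026I21Rik, had 81, 73 and 65 peaks in wild-type, 24, 32 and 42 in HIF1dPA and 0 in every mfn2-/- list. C130026I21Rik alone had 25, 21 and 19 against 7, 13 and 9. On chromosome 17 from 13 Mb, where testis genes such as Tcp10c, Smok2a and Tcte2 lie, the counts were 36, 29 and 47 against 7, 8 and 7. On chromosome 5 from 15 Mb, Gm21847, Gm17019 and Speer4cos brought 17, 18 and 20 wild-type peaks against 0, 1 and 0. There vhl-/- lists held 0, 0 and 0, whereas mfn2-/- lists held 12, 19 and 14. The Pramel window on chromosome 5 from 94 Mb, by contrast, averaged 19.7 peaks in both groups once lists were of equal length.

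Windows with at least 20 peaks in any list numbered 29. Outside them wild-type lists still held 1432 ± 110 peaks and HIF1dPA lists 906 ± 178 (n = 3 each), a ratio of 0.625 (exact permutation p = 0.1), close to the ratio over all autosomes. The lower number was thus as large away from the clusters as within them, where the means were 842 and 517.

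Intron peaks took a smaller share and distal intergenic peaks a larger share in HIF1dPA lists. Introns held 19.8, 18.6 and 18.7% of wild-type and 16.5, 16.4 and 16.0% of HIF1dPA peaks, and the groups did not overlap. The difference was -2.72 percentage points, and -2.45 at equal numbers (exact permutation p = 0.1 both). Distal intergenic peaks made up 59.8 ± 1.79% and 63.6 ± 1.53% (n = 3 each), a difference of +3.78 points, and of +7.95 at equal numbers (exact permutation p = 0.1 both). It was smaller, at +1.53 points, with peaks within 1000 bp joined (exact permutation p = 0.2). Without the 1 Mb windows of at least 20 peaks it was +2.11 points (exact permutation p = 0.2). Promoter peaks, to 3 kb from a start, made up 15.8, 14.1 and 14.8% against 13.9, 12.6 and 15.1%, which overlap (-1.03 points, exact permutation p = 0.4, adjusted p = 0.489). With 1141 top peaks they were 19.1 ± 0.498% and 15.1 ± 0.658%, without overlap (-3.97 points, exact permutation p = 0.1). Exons and untranslated regions together held 6.08 ± 0.372% and 6.10 ± 0.491% (exact permutation p = 1), but differed by -1.46 points at equal numbers (exact permutation p = 0.1). Predicted and Rik genes took 36.0 ± 0.244% and 35.6 ± 1.28% (exact permutation p = 0.6), a difference of -0.45 points, which was -8.25 at a score of at least 100 (exact permutation p = 0.1).

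**Figure D4:**
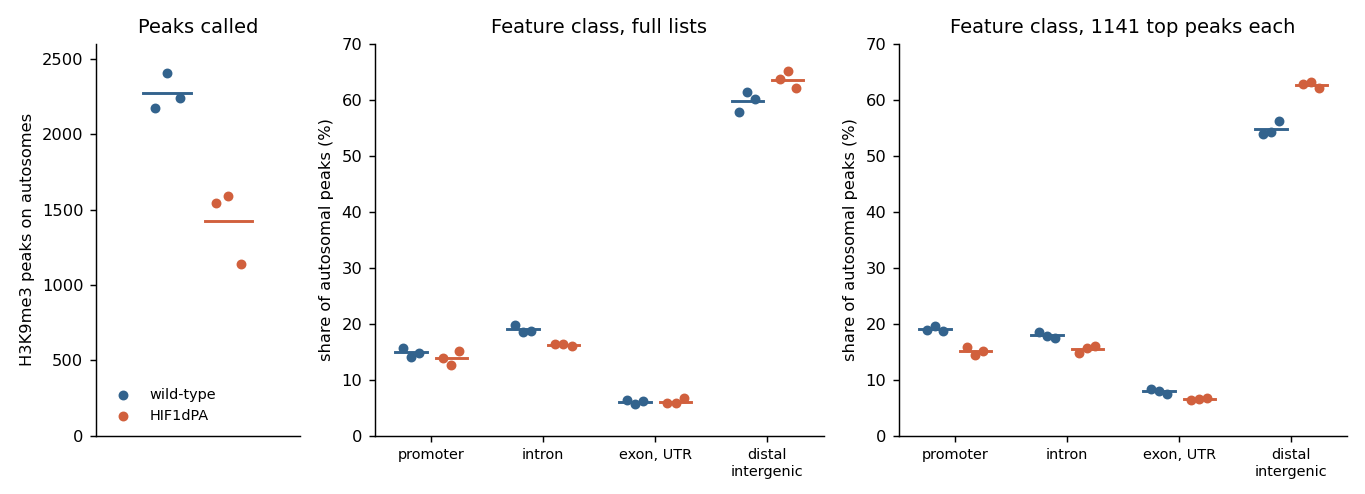
Autosomal H3K9me3 peaks per library (left, number of peaks) and their share by feature class in percent, for full lists (middle) and 1141 top peaks per list (right); points are libraries and short lines group means. Distal intergenic shares of the top peaks lie between 53.9 and 56.2% in wild-type and between 62.1 and 63.3% in HIF1dPA.

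At the 300-base promoter windows themselves, 36, 29 and 33 were overlapped in wild-type lists and 27, 22 and 15 in HIF1dPA lists (32.7 ± 3.51 and 21.3 ± 6.03, n = 3 each, exact permutation p = 0.1). Of the 89 overlapped in any list, 1 (1.12%) belonged to wild-type lists alone, 2 (2.25%) to HIF1dPA lists alone and 1 (1.12%) to all 6. The peak at Gm46178, which the authors assigned to Batf3, scored 79.2, 79.0 and 73.6 in wild-type. The peak at Gm17353 scored 181, 64.8 and 58.5 in HIF1dPA, and that at Gm40987 scored 66, 107 and 81.4. Overlapped windows held few CpG dinucleotides, with a median of 3 against 7 over all autosomal windows.

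The core of the hypoxia response element, ACGTG or GCGTG on either strand, to which HIF1 dimers bind, was found in 44.1% of all 31396 windows and in 18% of the 89. None of the 5 windows printed above holds it. This says only that these letters are not within those windows.

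Of the regions, 88 (1.1%) had a peak in all 6 lists. By mean percentile, the strongest was at a predicted gene on chromosome 2. The Gm10801 promoter region (chr2:98661817-98665645) ranked 3, 2 and 3 in wild-type and 3, 3 and 2 in HIF1dPA lists. Beside it, the Gm10800 promoter region (chr2:98665738-98667840) ranked 2, 3 and 2 in wild-type but 25, 19 and 58 in HIF1dPA. An intergenic region near Gm5614 (chr9:35305061-35305924) ranked 6, 5 and 4 against 4, 5 and 3, and one in intron 4 of 26 of Chl1, a neural cell adhesion gene, ranked 11, 10 and 11 against 11, 41 and 7. The regions at Gm10801, Gm5614 and Chl1 also had a peak of H3K27me3, the other mark profiled, in 3 wild-type and 3 HIF1dPA lists. The Gm10800 region had such a peak in 1 and 3 lists, so peaks at these places were not particular to H3K9me3. Of the 88 shared regions, 11 had an H3K27me3 peak in any of those lists. Shared regions of zinc finger genes included the 3' untranslated region of Zfp985, at ranks 17, 16 and 7 against 20, 37 and 20.

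By rank, 16 of these 88 shared regions (18.2%) stood higher in every wild-type than in any HIF1dPA list, 6 (6.82%) stood higher in every HIF1dPA list, and 66 overlapped. By percentile within the list the counts were 35 (39.8%) and 3 (3.41%), but a given rank is a lower percentile in the shorter HIF1dPA lists, so nothing is read from that split. Among regions without overlap in percentile, the largest difference against wild-type was in intron 2 of 2 of C130026I21Rik (chr1:85121428-85128861), at percentiles of 96.3, 92.2 and 95.1 in wild-type and 55.5, 73.7 and 18.6 in HIF1dPA. Regions at Gm8258, the B230307C23Rik and Gm16038 promoters and Macc1 followed among those without overlap. By rank, the Gm8258 and Macc1 regions did overlap between groups, whereas those of C130026I21Rik, B230307C23Rik and Gm16038 did not. All 3 with a higher percentile in every HIF1dPA list were on chromosome 13, at Rybp-ps (+30.4 points), the Zfp934 promoter (+25.2) and Cbx3-ps1 (+9.27).

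Lists of a genotype resembled each other more than lists of different genotypes. The Jaccard index, which divides the bases common to both lists of a pair by the bases in either, averaged 0.206 among wild-type lists, 0.163 among HIF1dPA lists and 0.124 between them. The within minus between difference was 0.0607, and 0.0767 at equal numbers (exact permutation p = 0.1 both). Of wild-type peaks, 22 to 23.2% overlapped a HIF1dPA peak, and of HIF1dPA peaks 26.3 to 32.6% overlapped a wild-type peak. At equal numbers the order turned, with 31.2 to 32.8% of wild-type and 26.1 to 26.8% of HIF1dPA peaks.

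**Figure D5:**
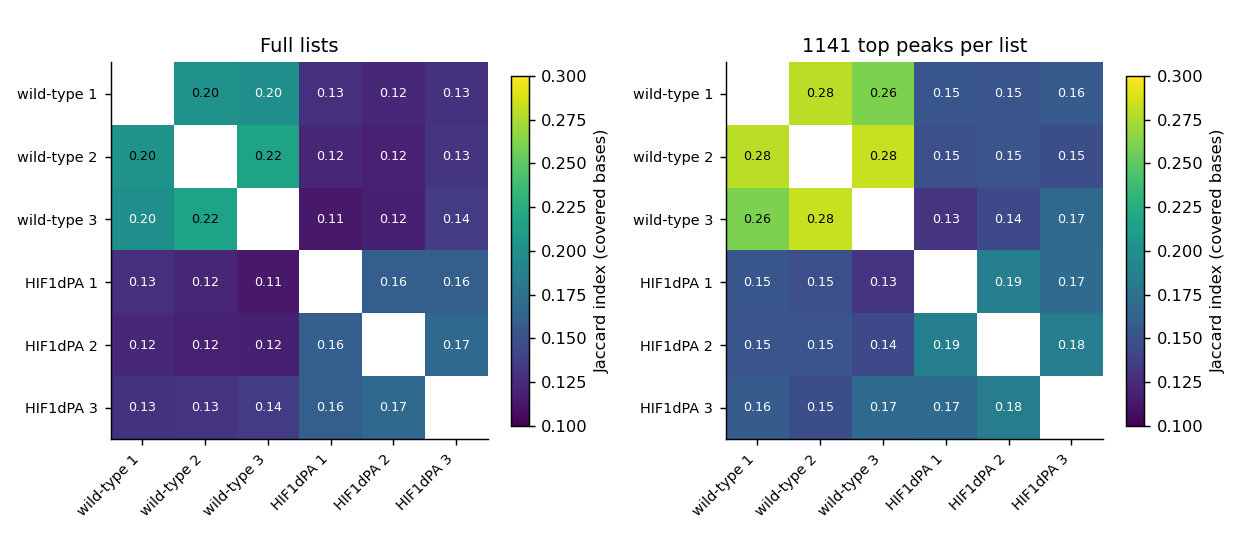
Jaccard index of covered bases for each pair of autosomal lists, full (left) and 1141 top peaks per list (right); both axes are the 6 libraries and brighter cells mean more overlap. Among full lists, pairs of wild-type lists range from 0.20 to 0.216, pairs of HIF1dPA lists from 0.160 to 0.168 and mixed pairs from 0.114 to 0.135.

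Genes of muscle and of the hypoxia response are set beside all autosomal protein-coding RefSeq genes, of which 2053 of 20661 (9.94%) had a peak in any of the 6 lists. The gene lists are short, and no share among them is read as fewer or more than that. At unknown depth, a gene without a called peak may still carry the mark. None of 29 sarcomere and fiber type genes, among them the myosin heavy chain, actin and titin genes, had a peak in any of the 6 lists, and neither did Hif1a, Vhl, Mfn2 or Nfatc2, and the transgene could not be checked from these data. Of 44 HIF1 targets, 2 had a peak. P4ha2, a collagen prolyl hydroxylase subunit, had 1 in each wild-type list, with scores of 96.8, 85.4 and 127, and in HIF1dPA replicates 1 and 2, with 65.9 and 65.6. Flt1, a VEGF receptor, had 1 in replicate 1 of each group. Of 26 enzymes and readers of H3K9 methylation, Atf7ip, a SETDB1 partner, had a peak in 4 lists (scores of 59.0 to 85.8, in both groups) and Hells, a chromatin remodeller, in 1. Of 12 myogenic regulators, Mef2a had a peak in 1 wild-type list and Mef2c in 1 HIF1dPA list, and 6 of 44 imprinted genes had a peak in 1 list each. None of these lists held a gene that separated the groups. Of 26 cell type markers, Calcr, Cdh5 and Adgre1 had a peak in 1 list each and the 5 myofiber markers had none, and a repressive mark cannot show which cells were present.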

How the data were processed

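The labels' genotype and antibody placed 3 libraries in each group, wild-type and HIF1dPA. The authors deposited 1 annotated peak list per library, with the peak's interval, assigned gene, feature class and a score of 10 times the negative log10 of the p-value (−log10 scale). The submitters' processing notes name BWA 0.7.5, MACS, deepTools 3.5.0 and mm10. Read filters, use of the input library and peak thresholds are not given in the sources used here. The deposited lists hold no read counts, so no interval that needs depth was computed. The study calls its replicates biological.

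From these lists, peaks on chromosomes 1 to 19 were kept, and values per library were compared with exact two-sided permutation tests over the 20 arrangements of 3 against 3, with Benjamini-Hochberg adjustment over 11 tests in full lists. Ratios were tested on the log2 scale. Peaks overlapping by 1 bp or more were merged into regions. A gene had a peak where the authors' annotation assigned one. Peaks without overlap between groups were counted without a test. Of 3446 symbols, 3139 (91.1%) matched RefSeq. No list was repeated.

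Named regions and genes were those separating the groups with the highest score percentiles (up to 10 each way, those that also separate at equal numbers first), the strongest shared regions and those with the largest differences, the 5 genes with most peaks per group, and members of fixed lists. The members and lists were chosen with earlier results of these data known. Windows, chromosomes, promoter windows, the shared run, Ighv, Obox, Pramel and other prefix families, and further regions and genes used as examples were chosen after their values were seen. Alternatives were equal numbers of top peaks, a score of at least 100, peaks within 1000 bp joined, other region, promoter and gene definitions, a replicate block and each library left out. Computation ran in Python 3.11.15 with pandas 2.3.3 and numpy 2.4.6, and plots were drawn with matplotlib 3.10.9.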

Additional observations from a re-analysis of the deposited data

Results flagged for a closer look

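Peaks on the Y chromosome, outside the autosomal comparison, were more numerous in HIF1dPA lists, with a mean of 40 (32 to 44, n = 3), than in wild-type lists, with a mean of 16.3 (15 to 19, n = 3). They were set aside as data beyond the autosomes in which the signal exceeded that of the control lists. Sex is not among the labels, and the part of this difference in the autosomal results was not tested.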

How the results depend on the processing

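Of 171 alternative values, 132 kept their direction and, for counts, stayed within 1.5 times. The 132 include those of the replicate block, which alters only the p and so keeps every value by construction. With equal numbers of top peaks, the ratio of median widths was 0.945, the exon and UTR difference -1.46 points, wild-type-only regions 47 and wild-type-only genes 35. At a score of at least 100, the exon and UTR difference was -5.90 points, and 26 regions and 17 genes separated towards wild-type, 16 and 5 towards HIF1dPA. With peaks within 1000 bp joined, 58 regions separated towards wild-type and 35 towards HIF1dPA. The promoter difference was 0.267 points for the class up to 1 kb, and with genic peaks alone 27 genes separated towards wild-type and 10 towards HIF1dPA.

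Settings chosen after seeing the data, which include the comparison of shared regions by rank, changed the family shares. Without the 1 Mb windows of at least 20 peaks, the difference was -1.22 points for zinc finger, 1.6 for receptor and 1.58 for predicted and Rik genes, with 41 regions and 54 genes separating towards wild-type and 5 and 11 towards HIF1dPA. It was -0.476 for zinc finger genes without the chromosome 13 windows and 1.68 for receptor genes without the chromosome 7 windows.

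Leaving out each library gave 107 to 202 wild-type-only and 64 to 124 HIF1dPA-only regions, 106 to 174 and 22 to 52 genes, and an exon and UTR difference of -0.267 to 0.191, negative without wild-type replicate 2 (-0.180) or HIF1dPA replicate 3. Counts grow by construction when fewer lists must hold a peak, and no other direction turned. With wild-type replicate 1, 2 or 3 left out, wild-type-only regions numbered 202, 179 and 174 and genes 174, 166 and 174. With HIF1dPA replicate 1, 2 or 3 left out, HIF1dPA-only regions numbered 100, 100 and 124 and genes 49, 47 and 52.

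Deviations of same-numbered libraries had correlations of 0.178, -0.0717 and 0.211. Those of differently numbered pairs ran from -0.243 to 0.0605, so 0.178 and 0.211 lay above all of them and -0.0717 within their range. Whether same-numbered libraries share more than a number was not tested. With the replicate block the smallest possible exact p is 0.25, and this was the p for the peak number ratio of 0.620, with no call changed. The unknown depth limits every count of peaks, and 3 libraries a group limit every test.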

Other observations

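Other tandem families, grouped by symbol after their values were seen, had fewer H3K9me3 peaks in HIF1dPA. Obox genes, homeobox genes of the oocyte and early embryo, were assigned 32, 35 and 37 peaks in wild-type and 13, 10 and 6 in HIF1dPA lists. Pramel genes, expressed in the germline and early embryo, had 53, 55 and 57 against 24, 33 and 21, and at equal numbers of top peaks 27, 24 and 21 against 20, 22 and 21, which overlap. Scgb genes, which encode secretoglobins, had 13, 17 and 15 against 2, 5 and 2.

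Cyp genes, which encode cytochrome P450 enzymes, had 23, 17 and 26 peaks against 7, 7 and 8. Mup genes, which encode urinary pheromone carriers, had 12, 9 and 8 against 0, 1 and 3. Psg genes, which encode pregnancy-specific glycoproteins, had 4, 2 and 4 against 0 in each HIF1dPA list. No group overlapped in these counts from full lists, and all but the Psg and Obox counts overlapped or met at equal numbers. The prefix families of the tandem gene list summed to 102, 112 and 106 against 48, 44 and 37 peaks, a ratio of means of 0.403, and of 0.821 at equal numbers of top peaks. Immunoglobulin heavy variable genes were the exception in direction, although Ighv1-24 had a peak in wild-type lists only.

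Among the wild-type-only genes that belong to no such family, Camk1d, a calcium/calmodulin-dependent kinase gene, had 1 peak in each wild-type list, with scores of 89.8, 87.1 and 69.9, and Mroh2a had 6, 7 and 6 peaks. Ranbp3l had 1 in each, with 123, 72.2 and 125. In HIF1dPA lists all 3 genes had 0.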
